A study of Mus musculus with 4 samples.

Results

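On the autosomes of Ela1-myc mouse pancreas, 699 places were found where a Ptf1a peak and a Myc peak lay on top of each other with no further peak of either factor near by. These solitary shared sites were chosen from the positions in the deposited peak lists of both factors. A Myc peak had to overlap exactly 1 Ptf1a peak by at least 1 bp, and no other Ptf1a or Myc peak was allowed within 12.5 kb of either partner, measured edge to edge. The 699 sites hold 12.9% of the 5417 autosomal Myc peaks (95% Wilson interval 12.04 to 13.8%, which covers counting error only) and 4.01% of the 17423 autosomal Ptf1a peaks (3.73 to 4.31%). The overlap that chose them is common in the Myc list, with 41.6% of its autosomal peaks on a Ptf1a peak, and less so in the longer Ptf1a list, with 13.5%.

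Both libraries came from pancreas of 8-week-old Ela1-myc mice, in which a c-Myc transgene is driven by the promoter of elastase 1, a digestive enzyme gene of acinar cells. The transgene is thus carried by the mice of both libraries, and no library of mice without it was used here. ChIP-seq, the sequencing of DNA recovered with a protein by chromatin immunoprecipitation, was done with a Ptf1a antibody on DNA of 1 mouse and with a c-Myc antibody on a pool of 3 mice. Inputs from 5 mice (for Ptf1a) and from the 3 pooled mice (for c-Myc) were not analysed here. With 1 library for each factor the values carry no error between mice, and they are given as descriptions of these lists without a test. The lists give no read counts, so depth is unknown, and the tissue label was not checked against marker genes because gene positions on the build of the peaks (mm9) were not used here.

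Ptf1a, a DNA-binding protein of the helix-loop-helix family, dimerises with E proteins. It joins Rbpj, or in mature acinar cells Rbpjl, in the PTF1 complex, which binds and drives genes of digestive enzymes. c-Myc belongs to the same wider family, with a leucine zipper through which it dimerises with Max. Myc-Max binds E-box sequences, often at promoters, and is known for raising genes of growth and ribosome production. Helix-loop-helix factors as a class recognise E-boxes, so sites of both kinds can hold related sequence. No sequence was read at these sites.

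The solitary sites were the smaller part of the places shared by the factors. Of 2359 overlapping pairs on the autosomes, 699 stood alone, which is 29.6% of pairs. Among the 1660 pairs that did not, 228 involved a peak that overlapped more than 1 peak of the other list. A further Ptf1a peak, and no Myc peak, lay within 12.5 kb of 743 pairs with 1 partner each. A further Myc peak alone kept out 108 pairs, and further peaks of both factors kept out 581. The distance limit therefore removed shared sites mostly through neighbouring Ptf1a peaks, which are the more numerous.

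The distance limit fell among pairs with nearly equal gaps on either side. The closest neighbours that still passed were 12501 bp away for the site at chr8:27100215-27101365, 12519 bp for chr13:44771420-44772286 and 12544 bp for chr13:96533847-96534644 (positions of Myc peaks, mm9, counted from 1). Just outside stood the pairs at chr13:99348287-99349371, chr13:91217450-91218432 and chr10:87804004-87805112, with gaps of 12426, 12418 and 12376 bp. Scores in the first trio ran from 105.16 to 603.6 for Ptf1a and from 65.36 to 206.54 for Myc. The latter trio ran from 286.85 to 902.35 and from 87.99 to 276.22. The score is the authors' value for each peak, its scale is not stated, and it is used only within a list.

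Most members were separated from the next peak by more than 25 kb. The median gap to the next peak of either list was 32.0 kb (quartiles 20.1 and 60.5 kb). The gap was over 25 kb at 440 members (62.9%), over 50 kb at 221 (31.6%), over 100 kb at 83 (11.9%) and over 200 kb at 24 (3.43%). The rule sets the lower bound of this gap, and the gaps of lone unshared peaks were not compared. Chromosome ends were not considered, so a site near an end can have other peaks on a single side only. The next peak was a Ptf1a peak at 516 members (73.8%) and a Myc peak at 183, and Ptf1a peaks are 76.3% of all autosomal peaks of both lists. The most remote site lay at chr10:129809483-129810608, where the next peak was 1433524 bp away, and its Ptf1a partner scored 343.96 and its Myc partner 75.68. The sites at chr5:128112336-128113266 and chr3:110053045-110053980 followed, with gaps of 1413349 and 1186670 bp. At both of these the Ptf1a score was low (57.9 and 57.6), and the midpoints of the partners were far apart for this class, at 485 and 427.5 bp.

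A few members ranked high for both factors. The wide site at chr17:39979551-39986248 came first, with a Myc score of 2073.91 and a Ptf1a score of 2425.1 over chr17:39979718-39985849. It stood apart from all other members in width, with a Myc peak of 6698 bp and a Ptf1a peak of 6132 bp, where the next widest Ptf1a partner measured 1547 bp. Whether reads from repeated sequence pile up there was not tested. Leaving it out moved the median Ptf1a score of the members from 138.35 to 138.085 and the median Myc score from 77.15 to 77.05.

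Next in joint rank was chr3:158222140-158223098, with a Ptf1a score of 1462.42 and a Myc score of 215.3, each the 19th highest among members. At chr3:144199665-144200590 the scores were 1361.18 and 189.16, and the Ptf1a peak lay wholly inside the Myc peak with no other peak for 181 kb. At chr5:73494301-73495592 they were 1117.32 and 217.33. These are sites where both factors were called well above the middle of their list, whose autosomal medians were 116.3 for Ptf1a and 75.19 for Myc.

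The other 6 of the 10 best joint ranks had Myc scores from 146.64 to 177.86. The site at chr9:57249404-57251324 paired a Myc peak of 1921 bp with a Ptf1a peak of 566 bp whose midpoint was 27.5 bp away. Those at chr5:86443401-86444219 and chr2:144498452-144499637 had Ptf1a scores of 1118.92 and 1500.56, with midpoints 32 and 75 bp apart. At chr10:39379310-39380375 the order of widths was turned round: the Myc peak of 1066 bp lay inside a Ptf1a peak of 1473 bp. At chr3:30182008-30183178 the partners met only at their flanks, with 265 bp in common and midpoints 785.5 bp apart. The last, chr19:32316458-32317335, had scores of 838.81 and 177.86. Over the 10 sites the midpoints lay 27.5 to 116 bp apart, except at chr3:158222140-158223098 (299 bp) and chr3:30182008-30183178.

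The 5 highest Ptf1a scores among members came with Myc scores from the floor to the top of the Myc list. The member with the highest Ptf1a score, 2632.01, lay at chr10:120995147-120995911, and its Myc peak scored 53.65. The following ones were at chr18:24351731-24352645 (2568.06 with a Myc score of 75.98), at the wide site on chromosome 17, at chr4:57024064-57025019 (2187.09 with 53.89) and at chr13:53825606-53826251 (1917.58 with 64.17). The lowest score in the Myc list is 50.0, so the Myc peaks at the chromosome 10 and chromosome 4 sites were close to the floor of their list. In the whole autosomal Ptf1a list 20 peaks scored above the highest member.

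The 5 highest Myc scores came with Ptf1a scores of a similar spread. After the wide site, the Myc peak at chr5:140893859-140895685 scored 413.62 with a Ptf1a score of 80.98. The one at chr4:101112133-101113067 scored 384.05 with 236.78, the one at chr13:75846074-75847344 scored 380.42 with 65.28, and the one at chr17:17510743-17511918 scored 372.66 with 54.41. Of these 4, only the site on chromosome 4 had a Ptf1a score above the median of its list.

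The largest gaps in rank were nearly as wide as the class itself. The site at chr3:108689215-108689828 was 11th by Ptf1a score (1618.03) and 684th by Myc score (50.77), and that at chr18:80718907-80719435 was 42nd (1120.69) and 694th (50.29). In the opposite direction, chr16:20610490-20612158 was 6th by Myc score (361.05) and 678th by Ptf1a score (53.44). At chr4:45120062-45121256 the Myc score of 194.21 was 29th and the Ptf1a score of 51.02 was 695th. At these 4 sites a high score of either factor stood beside a score of the other that only just entered its list.

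**Figure D1:**
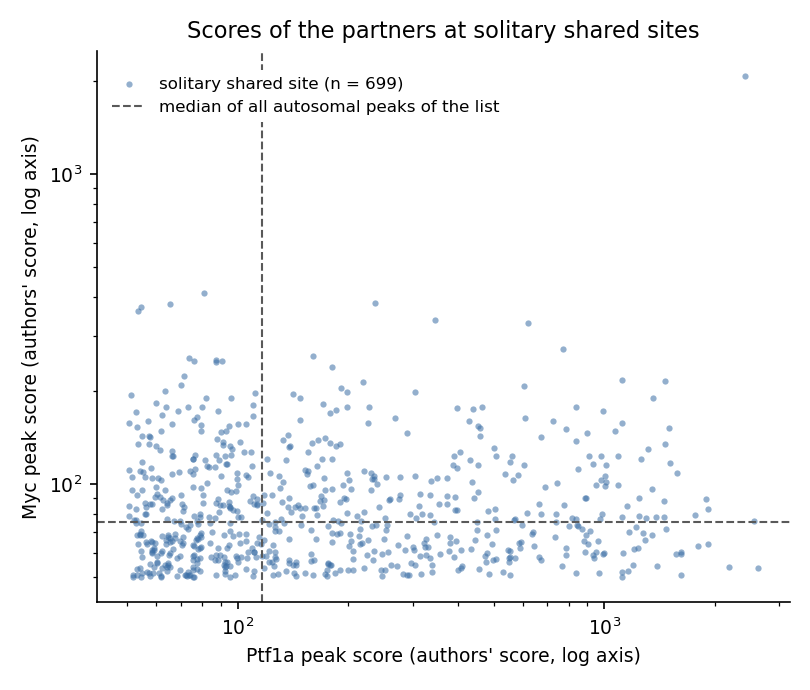
Ptf1a score (x axis, log) against Myc score (y axis, log) of the partners at the 699 solitary shared sites, 1 point per site, with dashed lines at the median of each autosomal list (116.3 and 75.19). The points lie on all sides of both lines, and the point far above the others is the wide site on chromosome 17.

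Across all members the scores of the partners were nearly unrelated. Spearman's rho over the 699 sites was 0.023 and Pearson's r of the log10 scores was 0.022. The plot of partner scores shows this as a cloud without a slope. Without the wide site, rho was 0.018 and r was -0.0063. Over the 1660 other overlapping pairs rho was 0.058 and r was 0.068, so a weak relation was not particular to the members. Both scores were above the median of their list at 208 members, or 29.8%, where all overlapping pairs gave 35.7% and the other pairs 38.1%. At 183 members only the Ptf1a score was above its median, at 158 only the Myc score, and at 150 neither. Both scores were in the highest 10% of their list at 11 members, or 1.57%, where all overlapping pairs gave 3.6% and the other pairs 4.46%. The points share their libraries, and sites are not replicates.

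With the members divided into 5 equal parts by Ptf1a score, the median Myc score of the partner stayed between 75.4 and 78.9. The parts covered Ptf1a scores from 50.36 up to 2632.01. In 5 parts by Myc score, the median Ptf1a score was 125 in the lowest, 126 in the next, then 164, 154 and 137. There was thus no steady rise of either score with the other.

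Solitary shared Ptf1a peaks scored above unshared peaks and below the other shared ones. The Ptf1a partners of members had a median score of 138 (quartiles 77.3 and 380). Ptf1a peaks that stood equally alone but had no Myc peak within 12.5 kb, 6215 in number, had a median of 103.5 (quartiles 67.1 and 212). Unshared peaks with a neighbour, the most numerous class with 8861, had 117 (71.0 and 265). Ptf1a peaks in the other overlapping pairs reached 198 (quartiles 85.9 and 562, 1648 peaks). A score of 100 or more was held by 427 members, or 61.1%, against 56.7% of all autosomal Ptf1a peaks and 51.8% of the lone unshared ones. The ranges of all these groups overlap widely.

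The classes were in the same order at the top of the score range. A Ptf1a score of 500 or more was held by 136 members (19.5%, Wilson interval 16.7 to 22.6%) and by 575 of the 6215 lone unshared peaks (9.25%, 8.56 to 9.998%), beside 27.7% of crowded shared peaks and 12.9% of all autosomal ones. A score under 60 was held by 71 members, or 10.2%, where the lone unshared peaks have 16.7% and the whole autosomal list 14.5%. Member peaks were also wider, with a median of 573 bp against 492 bp, and width and score rose together over members (Spearman's rho 0.65).

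Within parts of the list by width the difference was small except in the widest part. The autosomal Ptf1a list was divided into 5 equal parts by width, and the median score of members minus that of lone unshared peaks was 2.42, -2.29, -8.68 and 4.38 in the 4 narrower parts. In the widest it was 80.9, with a median of 451 for 218 members and 370 for 908 lone unshared peaks. The widest part spans 652 to 6132 bp, and widths within it were not matched. The member share also rose along these parts: members made up 5.35% of lone peaks in the narrowest and 19.4% in the widest. A wider peak also has more room to be touched by a peak of the other list, and the part of this in the shares was not tested.

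On the Myc side the members also lay between the lone unshared peaks and the other shared ones. The sizes of score differences are not compared between the lists. Myc partners at members had a median score of 77.2 (quartiles 60.2 and 107), lone Myc peaks with no Ptf1a peak within 12.5 kb had 71.8 (58.4 and 99.8, 1492 peaks), and Myc peaks of the other pairs had 80.9 (62.6 and 119.95, 1555 peaks). A score of 100 or more was held by 204 members, or 29.2%, close to the 28.7% of all autosomal Myc peaks. A score under 60 was held by 171 members, or 24.5%, where the whole autosomal list has 26.0%. In 5 parts by width the difference from lone unshared Myc peaks lay between -7.78 and 3.78 and was below 0 in the 2 widest. With the lists limited to scores from 100 upward, which changes who counts as alone, the overall difference was -0.12 instead of 5.32.

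**Figure D2:**
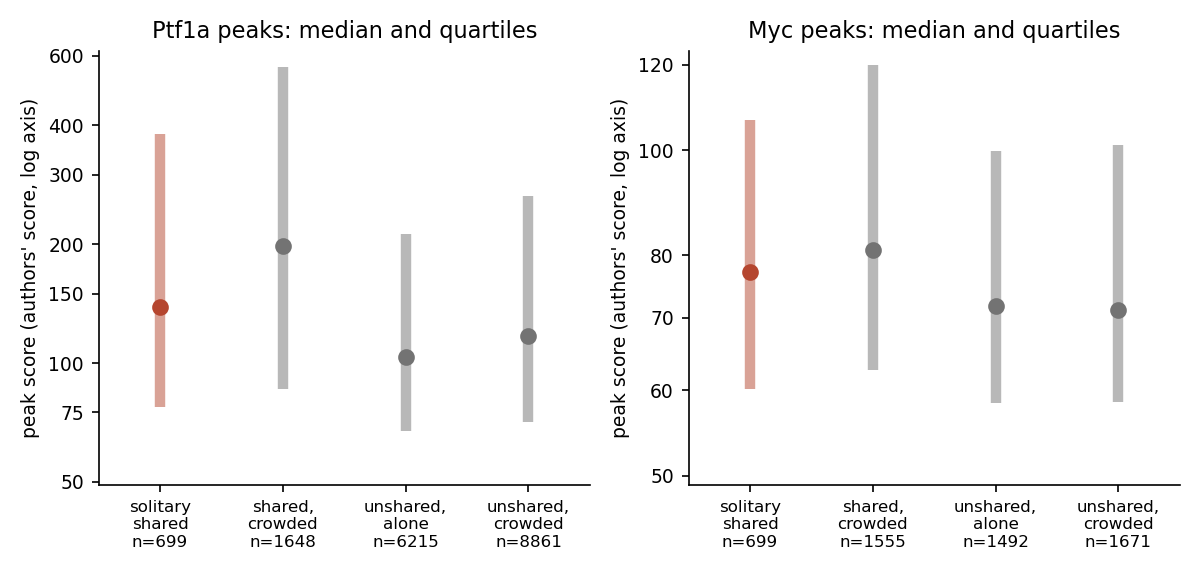
Peak score (y axis, log) of Ptf1a peaks (left) and Myc peaks (right) in 4 classes of autosomal peaks, as medians (points) and quartiles (bars): solitary shared sites, peaks of other overlapping pairs, unshared peaks with nothing within 12.5 kb, and unshared peaks with another peak that near. Solitary shared peaks sit between the lone unshared peaks (103.5 and 71.8) and the crowded shared peaks (198 and 80.9) in both lists.

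Peaks that stood alone were shared at a rate that differed by list. Of the 2191 Myc peaks that were members or had nothing within 12.5 kb, 31.9% (Wilson interval 29.98 to 33.9%) were members. Of the 6914 such Ptf1a peaks, 10.1% (9.42 to 10.8%) were members. Both shares count the same 699 pairs, so their difference follows from the numbers of lone peaks in the lists. Along 10 equal parts of the Ptf1a list by score, the member share was 5.91% in the lowest (4.44 to 7.81%) and 20.6% in the highest (17.4 to 24.2%). It lay between 8.04 and 12.4% in the 8 parts between. Along 10 such parts of the Myc list the member share went from 26.4% in the lowest (21.3 to 32.2%) to 38.4% in the last but one (31.9 to 45.3%). It was 31.4% in the highest (25.3 to 38.3%). The strongest lone Ptf1a peaks were thus the most often shared of their list. In the Myc list the share was lowest in the lowest part and highest in the last but one. The intervals of these parts overlap only from 31.9 to 32.2%. Such overlap does not measure the difference, which was not tested.

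**Figure D3:**
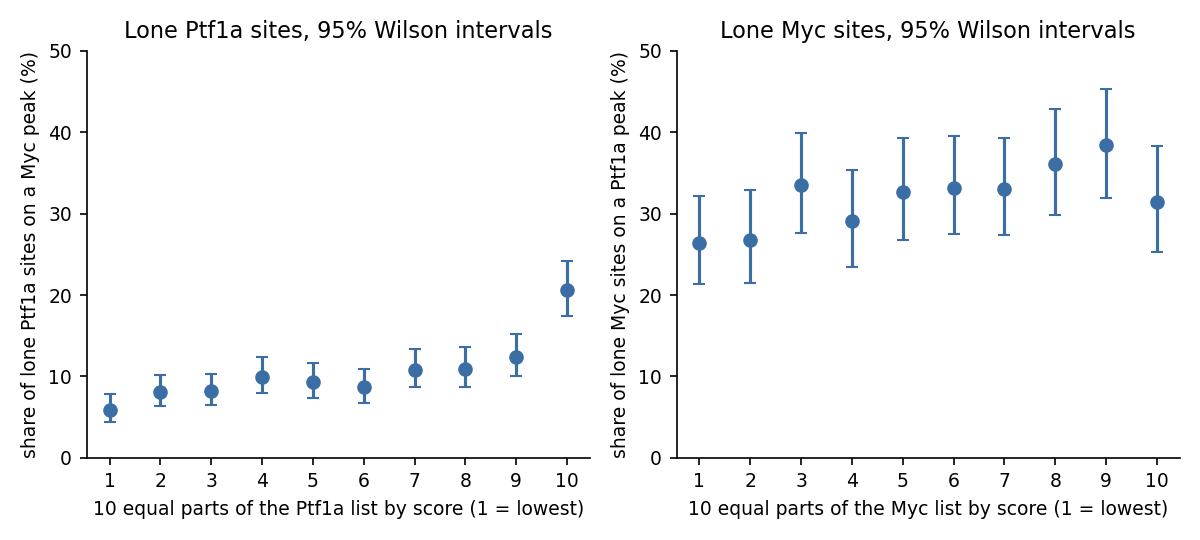
Share of lone autosomal Ptf1a peaks on a Myc peak (left) and of lone Myc peaks on a Ptf1a peak (right), in 10 equal parts of each list by score from lowest to highest, with 95% Wilson intervals. The highest Ptf1a part, at 20.6%, lies above the other 9. The Myc parts lie between 26.4% in the lowest and 38.4% in the last but one, whose intervals overlap slightly.

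Among the 100 highest peaks of each list, members had a larger share than in the whole list for Ptf1a and a smaller one for Myc. Of the 100 autosomal Ptf1a peaks with the highest scores, 7 were members, 41 belonged to other overlapping pairs, 9 were unshared and alone, and 43 were unshared with a neighbour. In the whole list these classes make up 4.01, 9.46, 35.7 and 50.9%. Of the 100 highest Myc peaks, 9 were members, 40 belonged to other pairs, 25 were unshared and alone, and 26 were unshared with a neighbour, beside 12.9, 28.7, 27.5 and 30.8% of the whole list. The intervals of the member shares (3.43 to 13.7% for Ptf1a, 4.81 to 16.2% for Myc) include those of the whole lists. Members made up 8.1% of the 1000 highest Ptf1a peaks (6.56 to 9.96%) and 12.7% of the 1000 highest Myc peaks (10.8 to 14.9%). At that cut the Ptf1a interval lies above the share of the whole list, and the Myc interval includes it. High-scoring shared peaks of both factors were mostly found in company. Of the 48 shared Ptf1a peaks among the 100 highest, 7 were solitary (14.6%, Wilson interval 7.25 to 27.2%). Of the 49 such Myc peaks, 9 were solitary (18.4%, 9.98 to 31.4%). Solitary pairs are 29.6% of all pairs. The Myc interval includes that share.

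At solitary sites the median distance between midpoints was 97.5 bp (quartiles 43 and 182 bp) and the median overlap 525 bp (417 and 623 bp). Midpoints were at most 100 bp apart at 358 members, or 51.2% (47.5 to 54.9%), where all overlapping pairs gave 46.1%. They were at most 250 bp apart at 583 members (83.4%, and 77.7% of all pairs) and at most 500 bp apart at 682 (97.6%, and 94.0% of all pairs). At these widths the overlap demanded by the rule already bounds the distance. The chromatin had been sheared to fragments of 300 to 500 bp per the labels' protocols, so most of these distances are below the length of a fragment.

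At 404 members the wider peak contained the whole of the narrower, which is 57.8% where all overlapping pairs gave 55.3%. The Myc peak was the wider at 598 members (85.6%, and 83.1% of all pairs), with a median width of 838 bp against 573 bp for Ptf1a. It held the whole Ptf1a peak at 364 members (52.1%, and 49.6% of all pairs), and the reverse was seen at 40 (5.72%, and 5.68% of all pairs). All overlapping pairs include the members. Of the 1432 other pairs with 1 partner each, the Myc peak was the wider in 80.9% (78.7 to 82.8%). The interval of the members was 82.7 to 88.0%. In those other pairs the narrower peak lay wholly inside in 55.5%. The Myc peak held the Ptf1a peak in 49.2%, and the reverse was seen in 6.28%. The Ptf1a midpoint lay at the higher coordinate of the pair at 360 of 699 members (51.5%, 47.8 to 55.2%), so the offset had no preferred side on the reference strand. An overlap of less than 50% of the narrower peak was seen at 26 members (3.72%, and 6.1% of all pairs). The smallest overlap was 5 bp, at chr15:88958435-88959379, between a Ptf1a peak of score 58.53 and a Myc peak of score 104.64.

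Crowded pairs as a whole were centred less closely, and those with 1 partner each came nearer to the members. The median of all crowded pairs was 118 bp (quartiles 51.5 and 242 bp). It was 104 bp (46.5 and 191.5 bp) over the 1432 with 1 partner each, which is nearer to the 97.5 bp of the members. The rule bars members from having several partners, so only the pairs with 1 partner each compare directly. Of these, 48.5% had midpoints at most 100 bp apart (46.0 to 51.1%), beside 51.2% of members. Within 250 bp the shares were 82.4% (80.3 to 84.3%) and 83.4% (80.5 to 85.98%), and within 500 bp 95.3% (94.1 to 96.3%) and 97.6% (96.1 to 98.5%). All these intervals of the classes overlap, and so do those of the median distances (98 to 110.5 bp and 89.5 to 104.5 bp, from binomial order statistics). Within 500 bp they overlap only from 96.1 to 96.3%. Such overlap does not measure the difference, which was not tested.

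**Figure D4:**
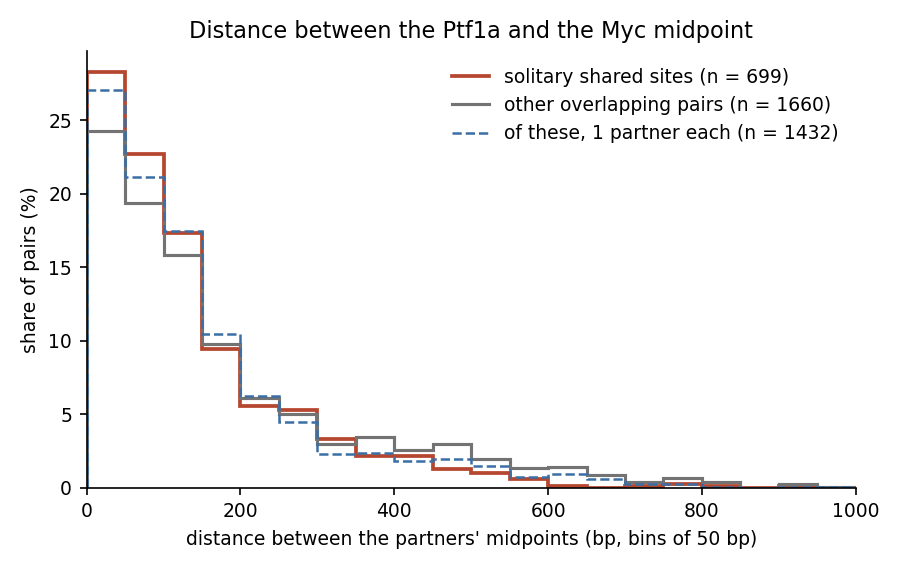
Share of pairs (y axis) by the distance between the midpoints of the Ptf1a and the Myc peak (x axis, bins of 50 bp up to 1000 bp), for the 699 solitary shared sites and the 1660 other overlapping pairs. The dashed line shows the 1432 other pairs with 1 partner each, which lie closer to the solitary sites (medians 104 and 97.5 bp) than all other pairs do (118 bp).

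Distance between the midpoints went with the Ptf1a score and hardly with the Myc score. With the members in 5 equal parts by Ptf1a score the median distance was 118 bp in the lowest, then 117, 99 and 85.3 bp, and 75.3 bp in the highest (Spearman's rho -0.17). In 5 parts by Myc score it was 91.8, 94, 94, 106 and 102 bp (rho 0.042). Among the crowded pairs rho was -0.12 with the Ptf1a score and 0.13 with the Myc score. Midpoints at most 100 bp apart rose from 42.9% of members in the lowest part by Ptf1a score to 58.6% in the highest. Ptf1a peaks were wider in the higher parts, with a median of 421.5 bp in the lowest and 749.5 bp in the highest. The median widths of their Myc partners were 864 bp in the lowest part and 847 bp in the highest. The part of peak width in the relation between distance and Ptf1a score was not tested.

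The last comparison set members beside couples that did not touch. A couple was 1 Ptf1a and 1 Myc peak at most 12.5 kb apart with no further peak within 12.5 kb of either. Of 1127 couples, 699 overlapped (the members) and 428 did not. By the gap between the edges, 88 couples lay under 1 kb apart, 64 from 1 to 2.5 kb, 70 from 2.5 to 5 kb, 139 from 5 to 10 kb and 67 from 10 to 12.5 kb. Per kb of gap this is 88.0 couples in the first stretch and 42.7 in the next, then 28.0, 27.8 and 26.8. Couples were thus more frequent close to contact and roughly level beyond 2.5 kb. By midpoints, 682 couples were under 500 bp apart, and no later bin of 500 bp held more than 48.

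**Figure D5:**
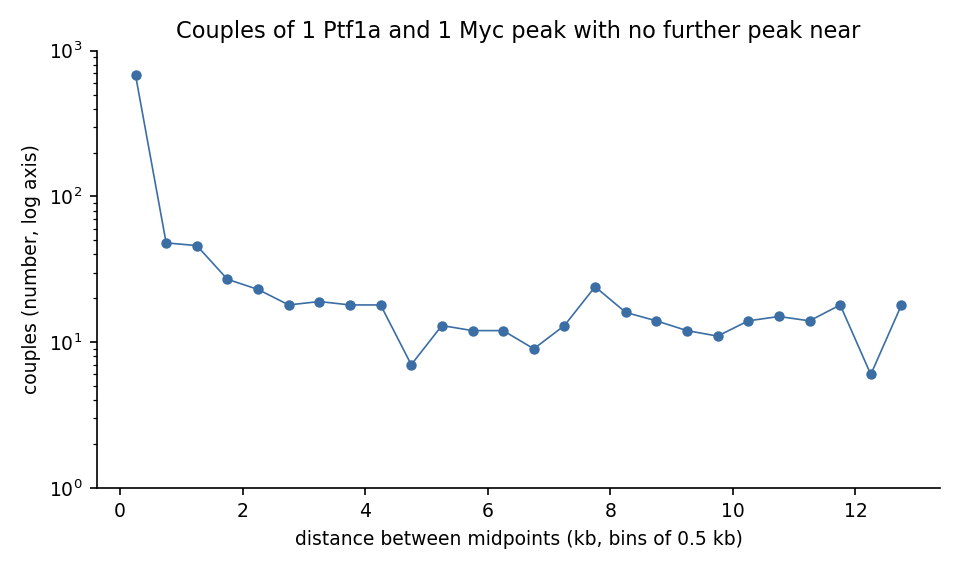
Number of couples (y axis, log) by the distance between the midpoints of the Ptf1a and the Myc peak (x axis, in kb, bins of 0.5 kb), for the 1127 couples of 1 peak of each factor with no further peak near. The first bin holds 682 couples and no other bin more than 48.

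The Ptf1a peaks of couples just short of contact were weak. In the 88 couples less than 1 kb apart the Ptf1a partner had a median score of 73.8 and a median width of 474.5 bp, and 34.1% reached a score of 100, where the members had 138, 573 bp and 61.1%, and all autosomal Ptf1a peaks have 56.7%. In couples 1 to 2.5 kb apart the median Ptf1a score was 116, and in those 10 to 12.5 kb apart it was 91.5. The median score of the Myc partners was 73.1 in couples under 1 kb apart, 65.2 from 1 to 2.5 kb and 69.5 from 10 to 12.5 kb. At members it was 77.2. Over all 428 couples that did not touch, the medians were 93.1 for Ptf1a and 71.4 for Myc. Contact was judged by peak edges, so at a given distance between midpoints a narrower peak touches less readily. The part of this in the scores was not tested.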

How the data were processed

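The authors deposited 1 peak list for the Ptf1a library and 1 for the c-Myc library, each with the position and a score per peak. The deposited score has no stated scale and does not go below 50.0 in either list. The submitters' processing notes name MACS 1.4.1, the aligner BWA 0.5.9-r16, FastQC 0.9.4 and CASAVA 1.8, and the build mm9. Their parameters and the part played by the inputs were not given in the sources used here. Depth is unknown.

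Peaks on 19 autosomes were used, including peaks of all scores. Gaps were measured between peak edges, and a gap of up to 12.5 kb counted as near. Computations used Python 3.11.15, numpy 2.4.6, pandas 2.3.3, scipy 1.17.1 and matplotlib 3.10.9, and the search for solitary pairs was tested on simulated data. Wilson intervals cover counting error only. The members, the comparison classes and the alternatives were chosen with earlier results of these data known. Sites named are the 10 with the best worse rank of both scores, the 5 highest by each score, the 3 largest rank differences each way, the 3 most remote, the 3 on each side of the distance limit and the widest, plus the next widest Ptf1a partner and the smallest overlap, which were added after their values were seen. Genes, promoters and motifs had been planned but were not analysed here, because the gene and promoter tables at hand are on GRCm38.p6 and coordinates were not converted.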

Additional observations from a re-analysis of the deposited data

How the results depend on the processing

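Of 91 values under 8 alternatives, 68 stayed within 1.5 times (counts) or within the 95% interval of the value reported, 22 moved and 1 changed sign. Adding chromosome X (703 sites) or leaving out the wide site (698 sites) hardly changed the class. The values under these alternatives could hardly move, and all are among those that stayed. The intervals are Wilson intervals for shares, binomial order-statistic intervals for medians and Fisher's z for rho. The median distance between midpoints stayed within its interval under all 8 (93 to 104.5 bp). With an isolation distance of 5, 25 and 50 kb there were 1078, 440 and 221 sites. At 5 kb, 34.4% of lone Myc peaks were on a Ptf1a peak. At 50 kb this was 28.9%, the reverse share was 8.31%, and the median Myc width was 816 bp. With peaks of score 60 or more only, median scores were 180 (Ptf1a) and 88.7 (Myc), widths 601 and 889 bp, the Myc score difference from lone peaks 1.94, rho -0.055 and the share of lone Ptf1a peaks on a Myc peak 8.63%. With peaks of score 100 or more only, 211 sites were left, with median scores of 313 and 135, widths of 666 and 977 bp, a Ptf1a score difference of 98.7, a Myc score difference of -0.12, and lone shares of 24.2% (Myc) and 4.09% (Ptf1a). Score limits raise the medians by construction; the cause of the other changes was not tested. The alternatives for genes and motifs were not run. Leaving out the wide site on chromosome 17 was chosen after its width was seen. With 1 library per factor no library could be left out, and a peak missing from a list may have been missed at its depth. No paired analysis was possible because there is nothing to pair among 2 lists of different factors.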

Other observations

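Solitary shared sites were found on all 19 autosomes, from 16 on chromosome 19 to 64 on chromosome 11 (9.16% of members, where this chromosome has 8.86% of autosomal Myc peaks). Per Mb between the first and last peak, chromosome 11 held 0.541 sites and chromosome 14 the fewest, 0.189. Chromosome 11 also has the most Ptf1a and Myc peaks per Mb, and 13.3% of its Myc peaks were members, the median over the autosomes. As a share of the Myc peaks of a chromosome, members made up 17.8% on chromosome 16 (Wilson interval 12.9 to 24.02%) and 8.25% on chromosome 19 (5.14 to 12.98%). These 2 intervals, from the ends of 19 chromosomes, overlap slightly. Of the overlapping pairs, 42.7% were solitary on chromosome 16 and 18.3% on chromosome 15. Over the 19 autosomes, Spearman's rho between the Ptf1a peaks per Mb and the solitary share of pairs was -0.49. Under a distance limit denser peaks can leave fewer pairs alone, and the part of this in the relation was not tested.

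The median Ptf1a score of members ranged from 95.05 on chromosome 4 (51 members) to 325.01 on chromosome 9 (31 members). The median Myc score ranged from 65.9 on chromosome 18 (26 members) to 96.3 on chromosome 8 (29 members). These are the extremes of 19 autosomes, and they were not compared with all peaks of the same chromosomes. On chromosome X, which was left out of the class, the same rule added 4 sites, for 703 in all. The median distance between midpoints on single autosomes lay between 69 and 124.5 bp.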
